A study of Mus musculus with 120 samples.

Results

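Glucocorticoid receptor target genes were followed here through a mouse model of paclitaxel-induced peripheral neuropathy. The members are 10 genes of the 52276 named genes in the count tables: Fkbp5, Zbtb16, Tsc22d3, Sgk1, Hif3a, Map3k6, Klf9, Pdk4, Gpt2 and Fam107a. They are known glucocorticoid-induced genes, and they were chosen by their measured difference between paclitaxel and vehicle mice in these same libraries. That difference, and whether a member passed the threshold on it, is therefore given below as a description that tests nothing about the members. Tests of the members are read only on other measures, namely the course over days within a treatment and the levels in each tissue. The courses share their libraries with that difference and are not fully independent of it. Agreement of mice between tissues was named along with that difference when the set was defined. Its p-values for the members are therefore a description as well. Paclitaxel and vehicle mice are also compared on lists of other genes, which were chosen with earlier results of these data known.

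RNA sequencing was performed on whole dorsal root ganglia (DRG), where the somata of sensory neurons lie among satellite glia and Schwann cells, and on plantar skin of the hind paw, both taken from the left side. The animals were male mice of strain C57B6/J that were 6 weeks old at treatment. Each received intraperitoneal injections of either paclitaxel at 4 mg/kg or the vehicle, a mixture of Cremophor and ethanol diluted in saline. The solvent was thus common to both treatments. Doses were given on days 0, 2, 4 and 6, but mice collected on day 4 cannot have had the dose of day 6. Day 4 and the later days therefore do not compare equal numbers of doses. Tissue was collected on day 4, 7, 11 or 23 from 4 mice per treatment and day, after perfusion with ice-cold buffer, giving 8 groups and 32 libraries in each tissue. The mice were housed in cages of 4 and the sources used here do not assign cages to groups, give the hour of collection, or say whether tissue of day 4 was taken before that day's dose. Cage, hour of collection and treatment can therefore not be told apart. Whole tissue was sequenced, so fewer cells of a type and less RNA per cell cannot be told apart either.

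Glucocorticoids are adrenal steroid hormones, in mice chiefly corticosterone, whose release follows a daily rhythm and rises with stress. The hormone binds the glucocorticoid receptor, encoded by Nr3c1, which waits in the cytoplasm in a complex with heat shock proteins and co-chaperones. The bound receptor moves to the nucleus, pairs on a palindromic DNA element and induces genes that limit inflammation, shift cells towards fasting metabolism and dampen the receptor itself. In peripheral nerve and skin, glucocorticoids are known for restraining inflammation and for altering myelin and epidermal growth.

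The element bound by the receptor is shown for 3 members whose promoters differ in it, since the receptor is known to induce genes through it. Promoters are RefSeq windows of 300 bases, 250 before and 50 after a transcript's start, on GRCm38.p6. Of the 10 members, 9 had a promoter there, with 18 windows between them, and Zbtb16 had none. The full element was searched as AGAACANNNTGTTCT, which reads the same on both strands, and its arm as AGAACA on either strand. A window of Sgk1 holds the exact element, written in capitals, starting 189 bases before the start site (chr10:21993640-21993939, plus strand). A window of Fam107a holds a match with 2 mismatches, in capitals, starting 121 bases before the start site (chr14:8309728-8310027, minus strand). The window of Fkbp5 (chr17:28486100-28486399, minus strand) holds no arm and no match with up to 2 mismatches. Capitals mark only the element or its match, and further arms in the windows of Sgk1 and Fam107a are in lower case. The sequences run 5′ to 3′ along the gene's strand.
Sgk1: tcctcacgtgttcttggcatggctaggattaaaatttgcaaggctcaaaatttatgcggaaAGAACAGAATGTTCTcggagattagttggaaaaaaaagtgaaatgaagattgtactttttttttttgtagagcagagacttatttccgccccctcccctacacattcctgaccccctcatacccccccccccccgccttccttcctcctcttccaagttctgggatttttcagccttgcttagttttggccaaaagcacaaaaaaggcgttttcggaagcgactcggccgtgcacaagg
Fam107a: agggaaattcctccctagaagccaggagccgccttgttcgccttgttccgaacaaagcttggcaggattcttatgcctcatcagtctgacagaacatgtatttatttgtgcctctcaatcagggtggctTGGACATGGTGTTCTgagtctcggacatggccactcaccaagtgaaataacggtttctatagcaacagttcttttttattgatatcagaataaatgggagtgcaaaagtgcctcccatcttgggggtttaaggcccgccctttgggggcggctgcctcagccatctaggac
Fkbp5: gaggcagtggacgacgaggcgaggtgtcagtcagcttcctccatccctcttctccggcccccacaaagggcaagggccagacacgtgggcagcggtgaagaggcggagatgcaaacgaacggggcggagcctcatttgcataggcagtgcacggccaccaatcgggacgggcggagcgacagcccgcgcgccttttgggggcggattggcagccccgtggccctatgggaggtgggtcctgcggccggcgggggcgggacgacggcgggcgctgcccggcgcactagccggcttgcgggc

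The exact element was found in 3 of 32851 mouse promoter windows (0.009%), a match with up to 2 mismatches in 606 (1.845%), and the arm alone in 6233 (19%). Among the members, only Sgk1 and Fam107a had windows with a match of up to 2 mismatches, and both also had windows without one. The other members with a promoter had no such match. A match is a description of the letters, and sites outside these windows were not searched.

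Sequencing depth was 22146536 to 52904112 counts per DRG library (median 31547028) and 24114230 to 63872693 per skin library (median 32147834). Levels are given in CPM, counts relative to a library's total after scaling by the trimmed mean of M-values (TMM). All 10 members were among the 18709 DRG genes and the 18578 skin genes that passed the filter on low counts. The labelled tissues were checked against marker genes, and 10 sensory neuron markers were detected in every DRG library. In skin, Scn10a and Calca were at 0 in 26 and 22 of the 32 libraries, the most of these markers. Prph, Isl1, Avil and Tubb3 were detected in every skin library, Tubb3 at 47.9 to 106 CPM against 1220 to 3060 CPM in DRG. The keratinocyte marker Krt10 was at 26600 to 67500 CPM in skin and 1.68 to 29.6 CPM in DRG. The DRG libraries of mouse 09 (paclitaxel, day 4) and mouse 34 (vehicle, day 11) stood apart, with mitochondrial shares of 1.8% and 1.77% of counts against 4.47% to 10.1% in the others, and with the lowest summed glial markers. The deposited labels of the library from mouse 09 conflict, since 1 of its 2 runs is labelled vehicle and the other paclitaxel. The deposited column was matched to the latter, and the authors' published list gives both runs as paclitaxel, day 4. In 11 DRG libraries the keratin gene Krt10 exceeded 10 CPM.

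Fkbp5 and Zbtb16 were lower with paclitaxel in DRG, from day 7 onwards without overlap between the groups. Fkbp5 encodes a co-chaperone that lowers the receptor's affinity for hormone, and it is a standard readout of receptor activity. On day 4, Fkbp5 in DRG measured 61.0, 67.2, 61.0 and 53.8 CPM in vehicle mice and 62.5, 45.0, 41.9 and 61.4 CPM in paclitaxel mice. The 2 groups overlapped, with 2 of the paclitaxel mice inside the vehicle range. On day 7 its level was 122, 97.5, 109 and 99.7 CPM with vehicle and 53.6, 53.3, 42.7 and 37.2 CPM with paclitaxel. All paclitaxel mice of that day lay below all vehicle mice. Day 11 gave 99.2, 66.5, 82.0 and 69.4 CPM with vehicle and 51.7, 48.4, 38.7 and 52.2 CPM with paclitaxel, and day 23 gave 97.2, 94.4, 64 and 71.0 CPM against 53.9, 44.4, 51.6 and 43.4 CPM. The groups were again separate on both days, and the paclitaxel level of DRG stayed between 37.2 and 62.5 CPM throughout while the vehicle level ranged from 53.8 to 122 CPM. The log2 fold changes of Fkbp5 on days 4, 7, 11 and 23 were −0.20, −1.20, −0.73 and −0.76, each with an SE of 0.15.

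In skin, Fkbp5 was lower with paclitaxel on all days, and the groups did not overlap on any of them. Day 4 levels were 65.0, 92.0, 102 and 57.7 CPM in vehicle mice and 35.9, 36.8, 40.1 and 38.5 CPM in paclitaxel mice. Levels on day 7 were 105, 107, 108 and 116 CPM with vehicle and 27.9, 36.8, 45.4 and 27.1 CPM with paclitaxel. The gap between the groups was widest on this day, when the vehicle mice lay close together. Day 11 gave 80.1, 45.9, 83.3 and 67.1 CPM against 31.8, 42.3, 26.8 and 30.7 CPM, and day 23 gave 62.2, 106, 77.5 and 68.2 CPM against 59.6, 31.1, 43.9 and 28 CPM. On these days the highest paclitaxel mouse lay just below the lowest vehicle mouse. The log2 fold changes were −1.07, −1.67, −1.07 and −0.95 on days 4, 7, 11 and 23 (SE 0.22 to 0.23).

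Zbtb16 encodes a zinc finger transcriptional repressor whose transcript responds strongly to glucocorticoids. In DRG on day 4 it measured 14.3, 11.6, 14 and 8.64 CPM with vehicle and 6.58, 4.86, 5.96 and 8.5 CPM with paclitaxel. Day 7 values were 61.5, 33.6, 37.9 and 29.4 CPM with vehicle and 7.75, 8.48, 6.14 and 4.49 CPM with paclitaxel. Every paclitaxel mouse was below every vehicle mouse on each of these days, by a small margin on day 4 and a wide one on day 7. On day 11 the vehicle mice 33, 34, 35 and 36 measured 42, 11.0, 31.7 and 11.6 CPM, and on day 23 the vehicle mice 49, 50, 51 and 52 measured 45.3, 37.0, 9.70 and 9.90 CPM. The vehicle groups of these 2 days thus each held 2 mice above 30 CPM and 2 below 12 CPM. Paclitaxel mice measured 5.94, 8.47, 5.47 and 4.83 CPM on day 11 and 6.17, 5.62, 6.19 and 5.10 CPM on day 23, again below every vehicle mouse. The log2 fold changes were −0.91, −2.60, −1.96 and −2.14 on days 4, 7, 11 and 23 (SE 0.41 to 0.42).

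The mice with high Zbtb16 were the mice with high Fkbp5 in these vehicle groups. Mice 33 and 35 had 99.2 and 82.0 CPM of Fkbp5 in DRG against 66.5 and 69.4 CPM in mice 34 and 36, and mice 49 and 50 had 97.2 and 94.4 CPM against 64 and 71.0 CPM in mice 51 and 52. Tsc22d3 and Sgk1 did not follow this order on day 23, when Tsc22d3 measured 157 and 173 CPM in mice 49 and 50 but 233 and 273 CPM in mice 51 and 52, and Sgk1 28.2 and 27.7 CPM but 55.8 and 65.7 CPM. These mice were singled out after their values were seen, and the DRG library of mouse 34 is 1 of those that stood apart.

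Zbtb16 behaved differently in skin. Day 4 values were 30.3, 58.5, 64.1 and 81.1 CPM with vehicle and 29.3, 38.9, 61.3 and 66 CPM with paclitaxel, which overlapped. Day 7 values were 53.7, 53.5, 93.9 and 88 CPM with vehicle and 30.9, 30.1, 23.7 and 16.4 CPM with paclitaxel. Day 7 was the only day on which the groups were separate. On day 11 both groups were low, at 28.6, 19.4, 14.9 and 20.6 CPM with vehicle and 19.3, 17.4, 18.3 and 16.7 CPM with paclitaxel. On day 23 the vehicle mice measured 22.9, 61.9, 43.7 and 54.0 CPM and the paclitaxel mice 72.5, 33.7, 60.7 and 45.2 CPM, with the highest value in a paclitaxel mouse. The log2 fold changes of Zbtb16 in skin were −0.26, −1.51, −0.22 and 0.22 on days 4, 7, 11 and 23 (SE 0.31 to 0.32).

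**Figure D1:**
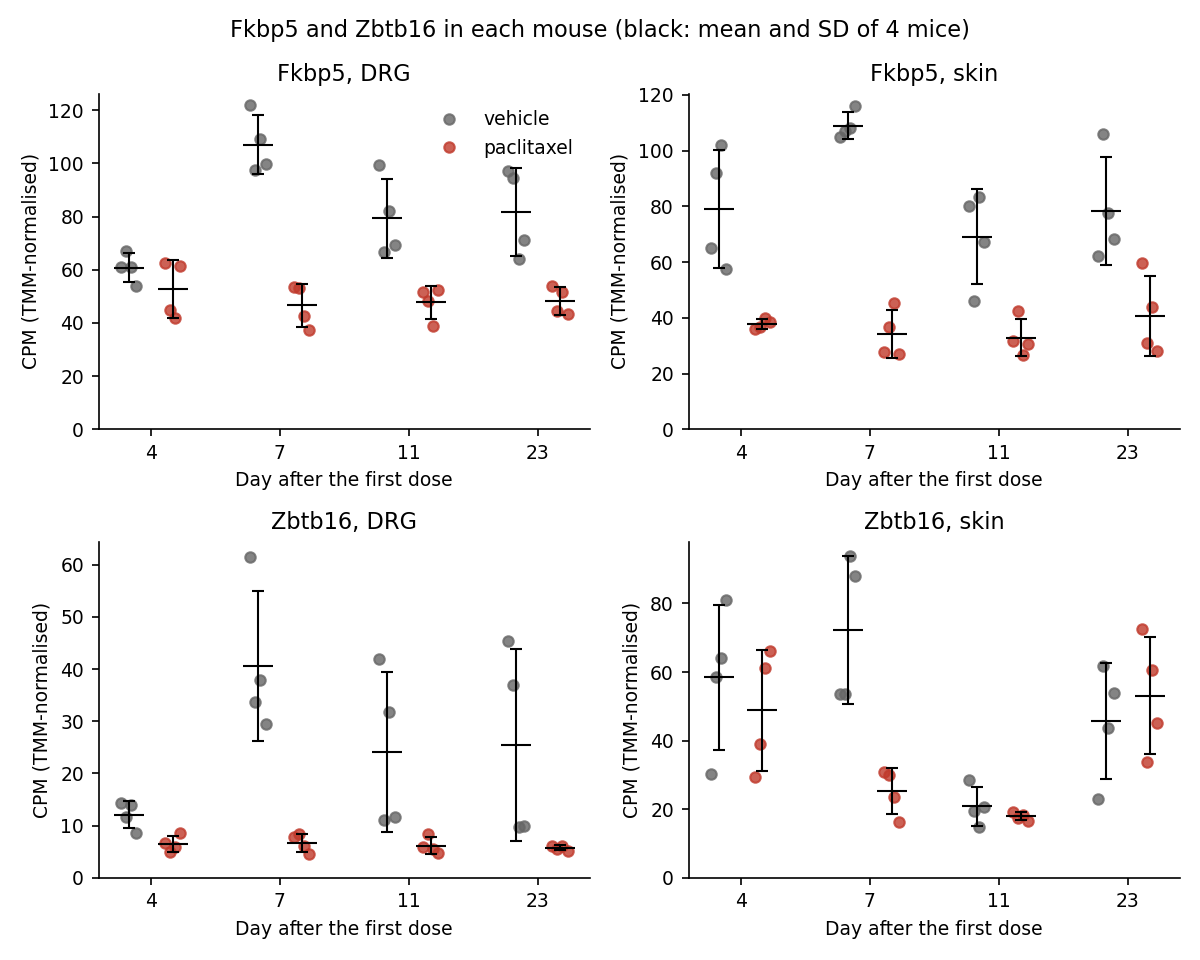
Fkbp5 (top) and Zbtb16 (bottom) in DRG (left) and skin (right), in CPM on the y axis against day after the first dose on the x axis; points are mice, grey for vehicle and red for paclitaxel, and black marks give the mean and SD of 4 mice. Zbtb16 in DRG of paclitaxel mice stayed between 4.49 and 8.5 CPM, and its vehicle groups split into high and low mice on days 11 and 23.

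The remaining transcription factors among the members were Klf9 and Hif3a. Klf9 encodes a Kruppel-like factor that is induced by both glucocorticoid and thyroid hormone. In DRG it measured 161, 137, 149 and 170 CPM in vehicle mice and 113, 122, 115 and 98.7 CPM in paclitaxel mice on day 7, without overlap, and the groups overlapped on the other days. In skin, Klf9 was 68.7, 79.2, 71.7 and 62.6 CPM with vehicle and 36.1, 45.1, 45.6 and 38.4 CPM with paclitaxel on day 7, and 55.6, 62.1, 58.3 and 41.9 CPM against 37.7, 30.6, 40.6 and 35.6 CPM on day 11. The skin groups were separate on these 2 days alone, and on days 4 and 23 the highest skin values of Klf9 were 128 CPM in a paclitaxel mouse and 96.4 CPM in a vehicle mouse. Hif3a encodes a hypoxia-inducible factor subunit that can antagonise the other members of its family. In DRG on day 7 it was 15.3, 11.0, 10.8 and 10.8 CPM with vehicle and 3.83, 2.61, 3.03 and 1.24 CPM with paclitaxel, a log2 fold change of −2.18 (SE 0.46). On the other days its groups overlapped in DRG, and in skin it was scarcely expressed, at 0 to 2.17 CPM over all mice.

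Tsc22d3 encodes GILZ, a leucine zipper protein that carries much of the anti-inflammatory action of glucocorticoids. Its DRG level on day 7 was 258, 181, 223 and 256 CPM with vehicle and 121, 174, 177 and 189 CPM with paclitaxel, and 1 paclitaxel mouse lay inside the vehicle range. In skin, by contrast, it was 205, 190, 245 and 240 CPM against 121, 138, 102 and 124 CPM on day 7, and 161, 103, 165 and 117 CPM against 65.0, 84.6, 85.5 and 102 CPM on day 11. The skin groups were separate on both of these days and overlapped on days 4 and 23, when the log2 fold changes were 0.12 and −0.02 (SE 0.23 each).

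The kinases among the members did not move together. Sgk1 encodes a serum- and glucocorticoid-regulated kinase that acts on ion transport, and its DRG level overlapped between treatments on each day, with a log2 fold change from 0.73 on day 4 to −0.64 on day 7 (SE 0.38 each). In skin on day 7 Sgk1 was 220, 244, 243 and 273 CPM with vehicle and 127, 158, 218 and 188 CPM with paclitaxel, without overlap on that day alone. Map3k6 encodes a kinase of the stress-activated MAP kinase cascade. Its DRG level was 11.8, 14, 13.7 and 14.5 CPM with vehicle and 7.93, 9.10, 8.10 and 6.16 CPM with paclitaxel on day 7, and 13.5, 15.3, 12.9 and 13.4 CPM against 6.58, 6.83, 9.06 and 9.24 CPM on day 23. These groups were separate, and those of Map3k6 in skin overlapped on all days, with log2 fold changes between −0.30 and 0.06. Pdk4 encodes pyruvate dehydrogenase kinase, which spares glucose in fasting muscle. In DRG it was higher with paclitaxel on day 11, at 23.4, 54.8, 24.3 and 24 CPM against 19.1, 10.2, 17.1 and 18.1 CPM, and lower on day 23, at 15.8, 18.3, 19.6 and 25.5 CPM against 30.7, 26.8, 37.7 and 38.2 CPM. The groups of Pdk4 were separate on both days, in opposite directions.

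Gpt2 encodes the mitochondrial alanine aminotransferase, and Fam107a an actin-associated protein induced by stress. Gpt2 in DRG was 118, 108, 119 and 123 CPM with vehicle and 88.3, 89.0, 88.6 and 80.8 CPM with paclitaxel on day 7, and 135, 120, 113 and 125 CPM against 80.4, 86.7, 92.5 and 80.0 CPM on day 23. The mice of each treatment lay close together and the groups were separate. In skin, Gpt2 pointed the other way, with only 3 of 16 paclitaxel mice below the vehicle median and medians of 46.0 CPM with vehicle and 57 CPM with paclitaxel. Fam107a in DRG was 99.1, 68.7, 110 and 97.5 CPM with vehicle and 52.9, 66.1, 54.6 and 43.8 CPM with paclitaxel on day 7, and 95.2, 94.5, 77.8 and 76.5 CPM against 54.4, 44.5, 43.9 and 48.8 CPM on day 23. Both days were without overlap. In skin on day 7, Fam107a was 6.84, 7.77, 10.4 and 4.87 CPM with vehicle and 1.58, 2.85, 1.87 and 1.28 CPM with paclitaxel, a log2 fold change of −1.97 (SE 0.50).

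**Figure D2:**
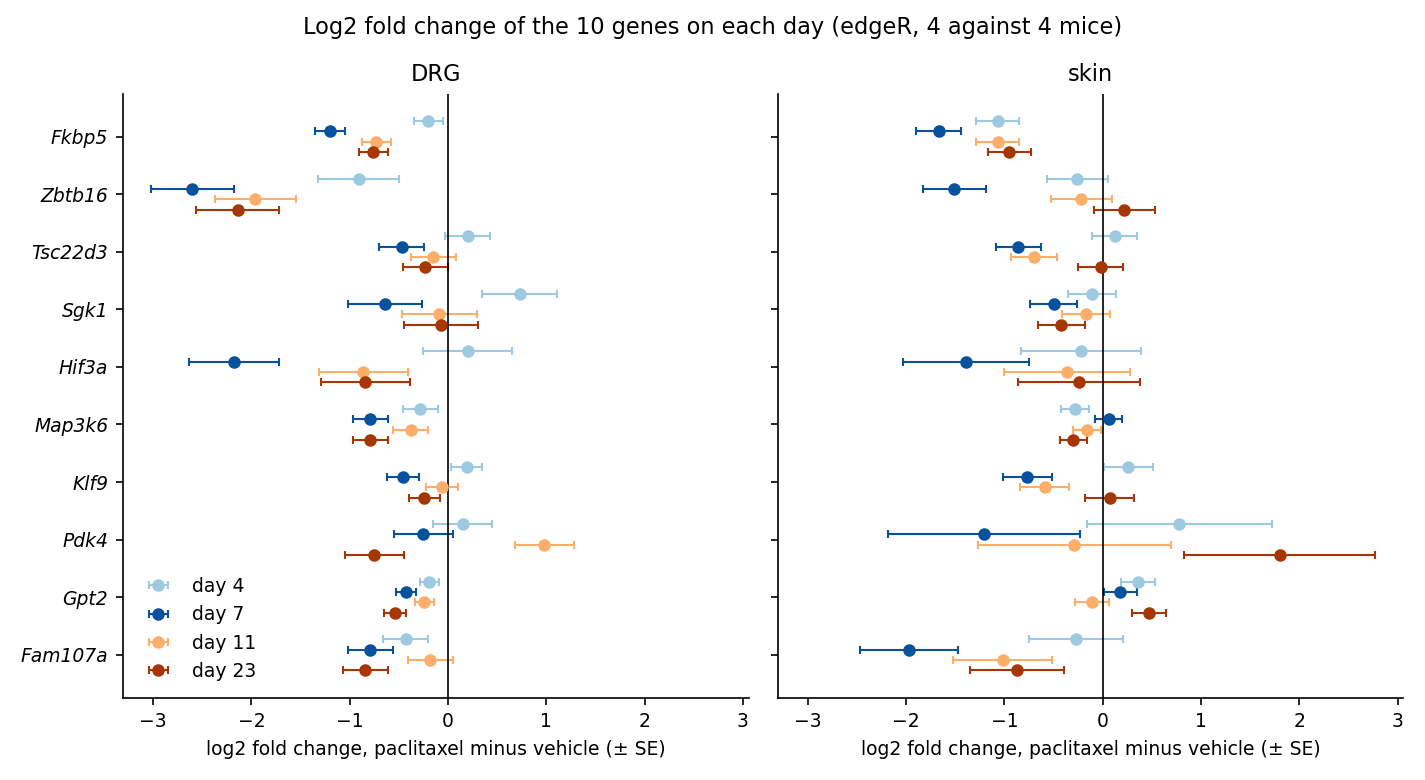
Log2 fold change of paclitaxel minus vehicle (x axis, bars ± SE, edgeR, 4 against 4 mice) for the 10 genes (y axis) on days 4, 7, 11 and 23, in DRG (left) and skin (right). The lowest values were −2.60 for Zbtb16 in DRG and −1.97 for Fam107a in skin, both on day 7, and Pdk4 and Gpt2 in skin lie above 0 on days 4 and 23.

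Counted over the members, every paclitaxel mouse lay below every vehicle mouse in DRG for 1 member on day 4, 7 on day 7, 2 on day 11 and 6 on day 23. Over all DRG genes tested, the same was seen for 1.79%, 2.43%, 1.77% and 2.8% on these days. In skin the counts were 1, 7, 3 and 1, and the shares over all skin genes were 1.93%, 3.0%, 2.3% and 5.47%. Fkbp5, Zbtb16, Hif3a, Klf9 and Fam107a were among the members separated on day 7 in both tissues. Since this contrast chose the members, nothing is read from these counts.

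The contrast averaged over the days is the one that chose the members, so the calls of the fit across all genes (edgeR's quasi-likelihood test with Benjamini-Hochberg adjustment) are listed for the members with nothing read from them. In DRG, 5 members were below the threshold on the lower side and 0 on the higher, and 0.0855% of all DRG genes tested were called lower. These members were Zbtb16 (log2 fold change −1.90, SE 0.21), Fkbp5 (−0.72, SE 0.08), Map3k6 (−0.56, SE 0.09), Fam107a (−0.56, SE 0.11) and Gpt2 (−0.35, SE 0.05). All 16 paclitaxel mice lay below the median of the vehicle mice for Fkbp5, Zbtb16, Map3k6 and Gpt2, and 15 did for Fam107a and Hif3a. Leaving out single mice ended the call of Fam107a in 18 of 32 fits. Hif3a was not called (−0.92, SE 0.23), nor were Tsc22d3 (−0.16), Klf9 (−0.14), Sgk1 (−0.02) and Pdk4 (0.03). The median log2 fold change was −0.45 over the members and −0.01 over all DRG genes tested, a difference that the choice of members fixes. Without mice 09 and 34, 6 members were called, Hif3a included (−0.93), and without the 11 libraries with Krt10 over 10 CPM only Fkbp5 was called (−0.63), while Zbtb16 was at −1.73. In DRG, summed keratinocyte markers ranged from 3.2 to 50.9 CPM with vehicle and from 5.04 to 58.9 CPM with paclitaxel, and summed glial markers from 8390 to 22100 CPM and from 6980 to 19800 CPM. Summed muscle markers in DRG ranged from 54.2 to 2090 CPM with vehicle and from 50.7 to 9090 CPM with paclitaxel. Of 16 muscle markers, 0 had a negative log2 fold change in DRG (median 1.06), and of 7 macrophage markers also 0 (median 0.13). None of these had an unadjusted p under 0.05. Glial sums of DRG were separate on day 23, at 16000 to 18500 CPM with vehicle and 13200 to 15900 CPM with paclitaxel. The part of these cell types in the differences was not tested beyond these fits.

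In skin, the same averaged contrast is likewise a description for the members. It placed 2 of them below the threshold on the lower side and 0 on the higher, and 2.66% of all skin genes tested were called lower. They were Fkbp5 (−1.19, SE 0.11) and Fam107a (−1.03, SE 0.24). The values that were not called were −0.55 for Hif3a, −0.44 for Zbtb16, −0.36 for Tsc22d3, −0.30 for Sgk1, −0.26 for Klf9, −0.17 for Map3k6, 0.23 for Gpt2 and 0.27 for Pdk4. All 16 paclitaxel mice were below the vehicle median for Fkbp5, 15 for Sgk1, 14 for Tsc22d3 and Fam107a, and 7 for Pdk4. Leaving out mouse 05, 12 or 52 raised the count to 4 members. The median over the members was −0.33, beside 0.00 over all skin genes tested, again fixed in part by the choice. With the log2 sum of skeletal muscle markers as a covariate, a fit chosen after seeing the data, 3 members were called, the added one being Tsc22d3. Of 8 keratinocyte markers, Lor (−0.44) and Krtdap (−0.23) were called lower in skin, calls that were lost in 15 and 16 of the alternative fits. No marker of the other cell types examined was called in either tissue in the averaged contrast. Macrophage markers in skin nevertheless had values above 0 for 7 of 7 genes (median log2 fold change 0.35, 4 at an unadjusted p under 0.05), with a summed level of 75.3 to 275 CPM with vehicle and 76.1 to 281 CPM with paclitaxel. Values below 0 were seen in skin for 8 of 8 keratinocyte markers (median −0.11) and 15 of 16 muscle markers (median −0.19). Sensory neuron markers in skin had a median of 0.51 over the 7 tested, 5 of them at an unadjusted p under 0.05, with sums of 54.5 to 100 CPM and 54.1 to 112 CPM. On single days some skin sums were separate between vehicle and paclitaxel. On day 7 these were glia (415 to 825 against 314 to 370 CPM) and endothelium (90.3 to 121 against 84.0 to 86.3 CPM). The others were keratinocytes on day 4 (86500 to 114000 against 61300 to 86100 CPM), sensory neurons on day 11 (69.1 to 80.3 against 84.5 to 108 CPM) and macrophages on day 23 (75.3 to 147 against 174 to 207 CPM). The part of these cell types in the skin values was not tested beyond the muscle covariate.

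The receptor and the enzymes that set its supply of hormone were examined next. These genes are not members, but their list was chosen with earlier results of these data known. The p-values between treatments are therefore not independent of that choice, and the same holds for the gene lists that follow. Nr3c1, which encodes the glucocorticoid receptor, ranged in skin from 43.4 to 68.0 CPM with vehicle (median 56.0) and from 60.6 to 91.2 CPM with paclitaxel (median 66.1). The ranges overlapped, and it was called higher with paclitaxel (log2 fold change 0.29, SE 0.06, adjusted p = 0.00262, edgeR), the only one of 14 receptor pathway genes called in skin. In DRG its medians were 58.7 and 67.1 CPM, and the difference was not called (0.18, adjusted p = 0.571) with all libraries but was called without mouse 09 (adjusted p = 0.0254, edgeR). None of the 14 genes was called in DRG, where 2 had an unadjusted p under 0.05. Nr3c2, the mineralocorticoid receptor gene, was at 20.5 and 24.7 CPM in DRG (0.26, adjusted p = 0.051, edgeR) and passed the threshold in 9 of the alternative fits, among them that without mice 09 and 34 (adjusted p = 0.03, edgeR). In skin, Nr3c2 was at −0.17 (adjusted p = 0.751). Hsd11b1, which regenerates active hormone inside cells, differed by −0.10 in DRG and 0.04 in skin, neither called. The heat shock protein genes Hsp90aa1 and Hsp90ab1, whose products hold the unbound receptor, were at −0.08 and −0.09 in DRG and were not called.

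Of 20 other genes known to be induced by glucocorticoids, 7 were called lower with paclitaxel in skin and 0 higher, where 494 of all 18578 genes tested (2.66%) were called lower. The metallothioneins Mt1 and Mt2, which bind metals, fell from medians of 294 and 357 CPM to 228 and 245 CPM (−0.39, adjusted p = 0.00218, and −0.47, adjusted p = 0.00075, edgeR). The others were Ddit4, an inhibitor of mTOR signalling (−0.48), Il1r2, a decoy receptor for interleukin 1 (−0.44), Nfkbia, the inhibitor of NF-kB (−0.31), Nedd9, an adhesion scaffold (−0.45), and the clock gene Per1 (−0.51). In all, 18 of the 20 had a negative value in skin, with a median of −0.25, beside 49.7% of all skin genes. In DRG, 16 of the 20 had a negative value, beside 53.2% of all DRG genes, the median was −0.10 and 0 were called, with 5 at an unadjusted p under 0.05. Mt2 in DRG fell short of the threshold (−0.63, adjusted p = 0.0681, edgeR), with medians of 52 CPM in vehicle and 31.1 CPM in paclitaxel mice. Dusp1, a phosphatase gene also induced by growth factors, was at −0.10 in DRG and −0.03 in skin.

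Of the inflammatory genes that glucocorticoids are known to repress, 9 of 10 could be tested in skin and 7 in DRG. Icam1, an adhesion molecule for leukocytes, was called higher in skin with medians of 9.06 CPM with vehicle and 11.2 CPM with paclitaxel (0.31, adjusted p = 0.0357, edgeR). This call of Icam1 was lost in 19 of the alternative fits (adjusted p of 0.0501 to 0.075), for example without mouse 06. Macrophage markers were also above 0 in skin, and their part in the value of Icam1 was not tested. The remaining tested genes of the list were not called in either tissue, and most were below 1 CPM. In skin 1 of the 9 had a negative value (median log2 fold change 0.56), with 2 at an unadjusted p under 0.05. In DRG 3 of the 7 had a negative value (median 0.06), with 1 at an unadjusted p under 0.05.

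Clock genes were examined because glucocorticoids are released in a daily rhythm. In DRG, Dbp was higher with paclitaxel, with medians of 32.2 CPM in vehicle and 55.8 CPM in paclitaxel mice (0.82, SE 0.13, adjusted p = 0.00203, edgeR), and Arntl was lower (−0.68, SE 0.11, adjusted p = 0.00203). Without the 11 libraries with Krt10 over 10 CPM neither was called (adjusted p = 0.559 for both), while the log2 fold changes were 0.79 for Dbp and −0.74 for Arntl, about as large as with all 32 libraries. The remaining 16 of 18 clock genes were not called in DRG. Of the 18, however, 11 had an unadjusted p under 0.05, beside 913 of all 18709 DRG genes tested. In skin, Per3 (0.61), Dbp (0.27) and Tef (0.25) were called higher, and Arntl (−0.47), Npas2 (−0.57), Nfil3 (−0.75), Per1 (−0.51), Cry1 (−0.41), Cry2 (−0.34), Nr1d1 (−0.31) and Clock (−0.17) lower. The skin call of Dbp was lost in 14 of the alternative fits (adjusted p of 0.0508 to 0.0655), for example without mouse 05, and that of Clock in 2 (0.0544 and 0.0698), with the muscle covariate and without a filter on low counts. Dbp and Arntl thus moved in the same directions in both tissues while the hour of collection is not given, and the part of this in the members' values was not tested.

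Days within a treatment were compared next, since these contrasts do not set paclitaxel against vehicle. In DRG, 0 members and 0% of genes differed between the days among vehicle mice at an adjusted p below 0.05 (edgeR F test), with 2127 genes at an unadjusted p under 0.05, and the adjusted p was 0.32 for Fkbp5 and 0.392 for Zbtb16. Fkbp5 passed when the library of mouse 09 was left out of the fit (adjusted p = 0.0455). Among DRG of paclitaxel mice 0 members and 0% of genes were called as well, with 835 genes at an unadjusted p under 0.05. Zbtb16, whose mean CPM in DRG of paclitaxel mice varied little between days, had an F of 0.098 there.

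In skin of vehicle mice, Zbtb16 was the only member called between days (F 11.2, adjusted p = 0.0192, edgeR), beside 0.877% of all skin genes. Its vehicle level was lowest on day 11, at 14.9 to 28.6 CPM, and highest on day 7, at 53.5 to 93.9 CPM. The call was lost without vehicle mouse 35 (adjusted p = 0.0584) or vehicle mouse 36 (adjusted p = 0.052) of day 11. In skin of paclitaxel mice, 5 members were called, Zbtb16 (adjusted p = 0.00529), Pdk4 (0.00994), Klf9 (0.0133), Fam107a (0.0161) and Tsc22d3 (0.0177), beside 16.3% of all skin genes. The call of Tsc22d3 was lost without mouse 41 (adjusted p = 0.0642, edgeR), and Map3k6 (adjusted p = 0.0539) passed in 16 of the alternative fits. Pdk4 showed the widest course, at 26.6, 50.7, 95.2 and 81.1 CPM on day 4, 6.38, 5.85, 4.54 and 7.59 CPM on day 7, 1.54, 4.36, 15.5 and 4.57 CPM on day 11, and 93.0, 70.1, 193 and 57.6 CPM on day 23. Its days 4 and 23 lay above days 7 and 11 in every paclitaxel mouse.

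Markers of several cell types in these skin libraries moved with the same days, those of skeletal muscle over a wider range than those of glia or keratinocytes. The sum of the 16 muscle markers was 14700 to 28800 CPM on day 4 and 19200 to 36300 CPM on day 23 in paclitaxel mice, but 601 to 3500 CPM on day 7 and 76.8 to 3880 CPM on day 11. In vehicle mice the sum ranged from 52.4 to 54900 CPM, with the highest values in mouse 52 of day 23 and in mouse 08 of day 4 (25500 CPM). Summed glial markers in paclitaxel skin were 762 to 995 CPM on day 4 and 468 to 1230 CPM on day 23, above the 314 to 370 CPM of day 7 and the 299 to 434 CPM of day 11. Keratinocyte markers took the opposite course, at 61300 to 86100 CPM and 57300 to 84500 CPM on days 4 and 23 and 104000 to 110000 CPM and 86600 to 117000 CPM on days 7 and 11. A fit was made with the muscle markers alone, and the part of the other cell types was not tested. The log2 sum of the muscle markers served as a covariate, chosen after seeing the data. With it, 0 of the 10 members and 0 genes were called between days in paclitaxel skin. The adjusted p-values of the 5 members above were 0.148 to 0.429 (edgeR). However, every muscle sum of days 4 and 23 lay above every sum of days 7 and 11 in these mice. The covariate and the days can therefore hardly be told apart there. Loss of the calls in this fit does not show what part muscle had in the course. Fkbp5 was not called between days in skin with either treatment (adjusted p = 0.253 and 0.696).

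**Figure D3:**
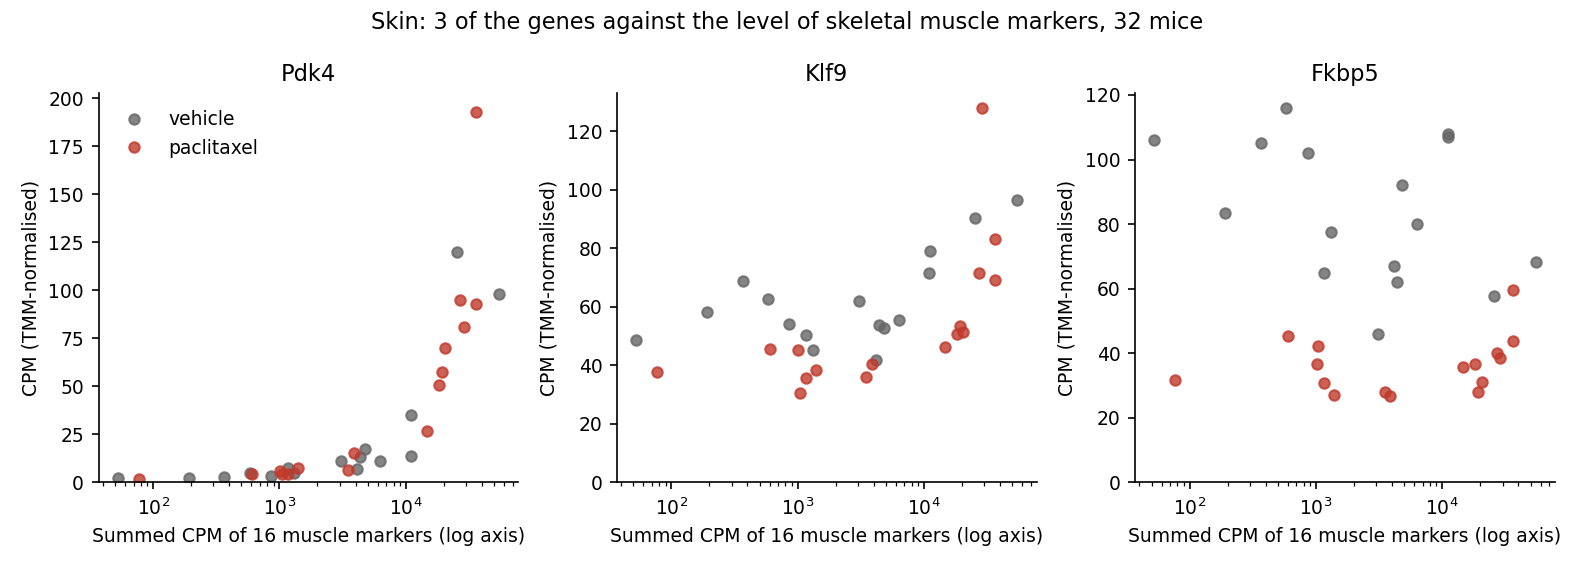
Pdk4, Klf9 and Fkbp5 in skin (y axes, CPM) against the summed CPM of 16 skeletal muscle markers (x axis, log scale), with 1 point per mouse, grey for vehicle and red for paclitaxel. Pdk4 reached 193 CPM in libraries with high muscle markers, whereas Fkbp5 of paclitaxel mice stayed at or below 59.6 CPM over the whole range.

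The members were next compared between DRG and skin in vehicle mice, where 8 of 10 were called against 87.7% of all genes tested. Higher in DRG were Fam107a (log2 difference of DRG minus skin 3.46, SE 0.22), Hif3a (2.40, SE 0.24), Gpt2 (1.08, SE 0.08) and Klf9 (1.01, SE 0.10). Higher in skin were Map3k6 (−3.20, SE 0.08), Sgk1 (−2.67, SE 0.15), Zbtb16 (−1.10, SE 0.22) and Fkbp5 (−0.20, SE 0.09, adjusted p = 0.0434, edgeR). The call of Fkbp5 was lost with DESeq2 size factors (adjusted p = 0.056) and without most single mice, so its level in the 2 tissues was close. Tsc22d3 (0.09, SE 0.10) and Pdk4 (0.02, SE 0.44) were not called. The value of Pdk4 was not stable, at 0.92 with a replicate block (adjusted p = 0.0546, edgeR) and from −0.10 to 0.54 with single mice left out, the highest without mouse 52.

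Levels were also put per kilobase of exon so that genes could be ordered within a tissue. In DRG of vehicle mice (mean ± SD, n = 16) the order was Tsc22d3 at 45.7 ± 10.6 CPM per kb, Klf9 at 29.3 ± 5.12, Fam107a at 20.9 ± 5.27, Gpt2 at 19.9 ± 2.42, Fkbp5 at 8.68 ± 2.18, Sgk1 at 7.74 ± 2.65, Pdk4 at 6.31 ± 2.29, Zbtb16 at 4.84 ± 3.09, Map3k6 at 2.57 ± 0.533 and Hif3a at 1.09 ± 0.576. Neighbours in this order overlapped in range except Gpt2 and Fkbp5. In skin the order was Sgk1 at 43.3 ± 11.0 CPM per kb, Tsc22d3 at 38.4 ± 10.3, Map3k6 at 20.9 ± 2.55, Klf9 at 12.9 ± 3.25, Zbtb16 at 9.34 ± 4.75, Fkbp5 at 8.87 ± 2.29, Gpt2 at 8.37 ± 1.68, Pdk4 at 6.33 ± 10, Fam107a at 1.75 ± 0.923 and Hif3a at 0.177 ± 0.0839. The only neighbours with separate ranges were Fam107a and Hif3a. Tsc22d3 was thus among the 2 highest members in both tissues, while Sgk1 and Map3k6 were high in skin alone.

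Circulating hormone reaches both tissues of an animal, so the deviation of each mouse from its group mean, on the log2(CPM + 1) scale, was compared between its DRG and its skin. Both tissues carry the same mouse numbers, which were read as the same animals. Over genes, the deviations of same-numbered vehicle libraries correlated at only −0.178 to 0.155, which does not show the pairing to be right. Low agreement and a wrong pairing can therefore not be told apart. The 32 deviations hold nothing of the difference between treatments. Agreement was however named when the set was defined, so the p-values of the members below are a description. Over 16397 genes tested in both tissues, 0% were called by a permutation test of Pearson's r within groups after adjustment, and 853 (5.2%) had an unadjusted p under 0.05. Spearman's rho also gave 0 calls.

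Tsc22d3 agreed most among the members, with r of 0.62 (permutation p = 0.00319, adjusted p = 0.772) and rho of 0.53 (permutation p = 0.00805, adjusted p = 0.788) over 32 mice. It therefore failed the adjustment over all genes. Within the 16 vehicle mice r was 0.59 and within the 16 paclitaxel mice 0.64. Without the 2 mice farthest from the median in DRG r was 0.41 (permutation p = 0.0644), and without mouse 12 alone it was 0.48, so part of the relation rests on these mice. Mouse 12 (paclitaxel, day 4) had 279 CPM of Tsc22d3 in DRG and 283 CPM in skin, the highest value of both tissues.

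Fkbp5 gave r of 0.37 (permutation p = 0.0533, adjusted p = 0.955) and rho of 0.32 (permutation p = 0.107). Klf9 had r of 0.40 (permutation p = 0.172), which was 0.10 without mouse 12, and Sgk1 had r of 0.36 (permutation p = 0.0833). The values of Fam107a (0.10), Pdk4 (0.09), Gpt2 (0.08), Map3k6 (0.02), Hif3a (−0.02) and Zbtb16 (−0.09) were near 0. Without mice 09 and 34, Fam107a had r of 0.43 (permutation p = 0.016, adjusted p = 0.964). Zbtb16 had r of −0.27 in vehicle mice and 0.53 in paclitaxel mice, and the difference between these was not tested. In all, 8 of 10 members had r above 0, with a median of 0.10, beside 53.0% and a median of 0.016 over all genes.

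**Figure D4:**
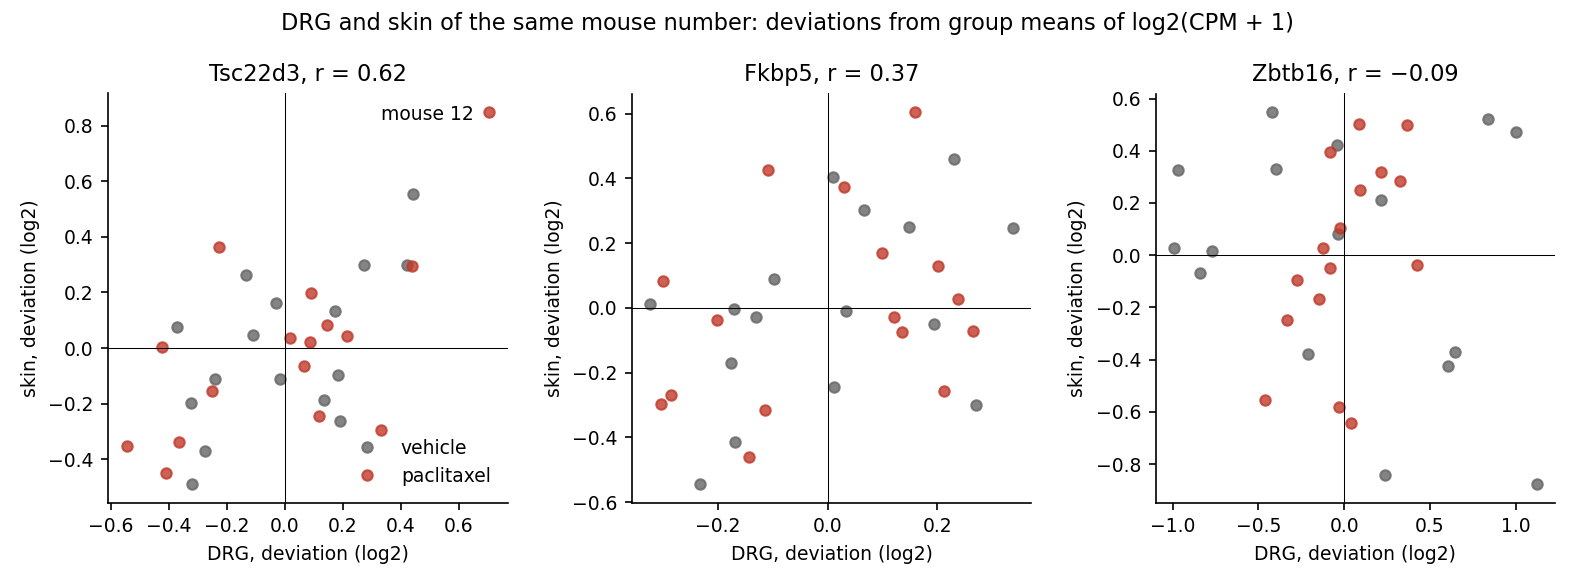
Deviation of each mouse from its group mean of log2(CPM + 1) in DRG (x axis) and skin (y axis) for Tsc22d3, Fkbp5 and Zbtb16, with 32 mice per plot, grey for vehicle and red for paclitaxel. Tsc22d3 (r = 0.62) rises along the diagonal with mouse 12 at its upper end, and Zbtb16 (r = −0.09) shows no slope.

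The same deviations were compared between members within a tissue, as a description with no test, since the pairs share libraries. In DRG, 40 of 45 pairs had r above 0, with a median of 0.41 and a range from −0.25 to 0.89 over 32 mice. Fkbp5 and Zbtb16 varied together (r = 0.77, and 0.78 without mice 09 and 34). A second pair was Tsc22d3 and Sgk1 (r = 0.87, and 0.88 without these mice). Between the pairs the values were negative, from −0.25 for Zbtb16 with Sgk1 to −0.20 for Fkbp5 with Tsc22d3. Hif3a with Gpt2 (0.89) and Hif3a with Klf9 (0.78) were also high, though they fell to 0.72 and 0.57 without mice 09 and 34. Without these mice 32 of 45 pairs were above 0, with a median of 0.27.

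In skin, 25 of 45 pairs had r above 0, with a median of 0.10 and a range from −0.62 to 0.69. Tsc22d3 with Klf9 (0.69), Hif3a with Fam107a (0.66) and Klf9 with Pdk4 (0.65) were the highest. Map3k6 with Klf9 (−0.62) and with Pdk4 (−0.51) were among the lowest. The libraries of mice 08 and 52 with high muscle markers were the ones with high Klf9 and Pdk4 in their groups.

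**Figure D5:**
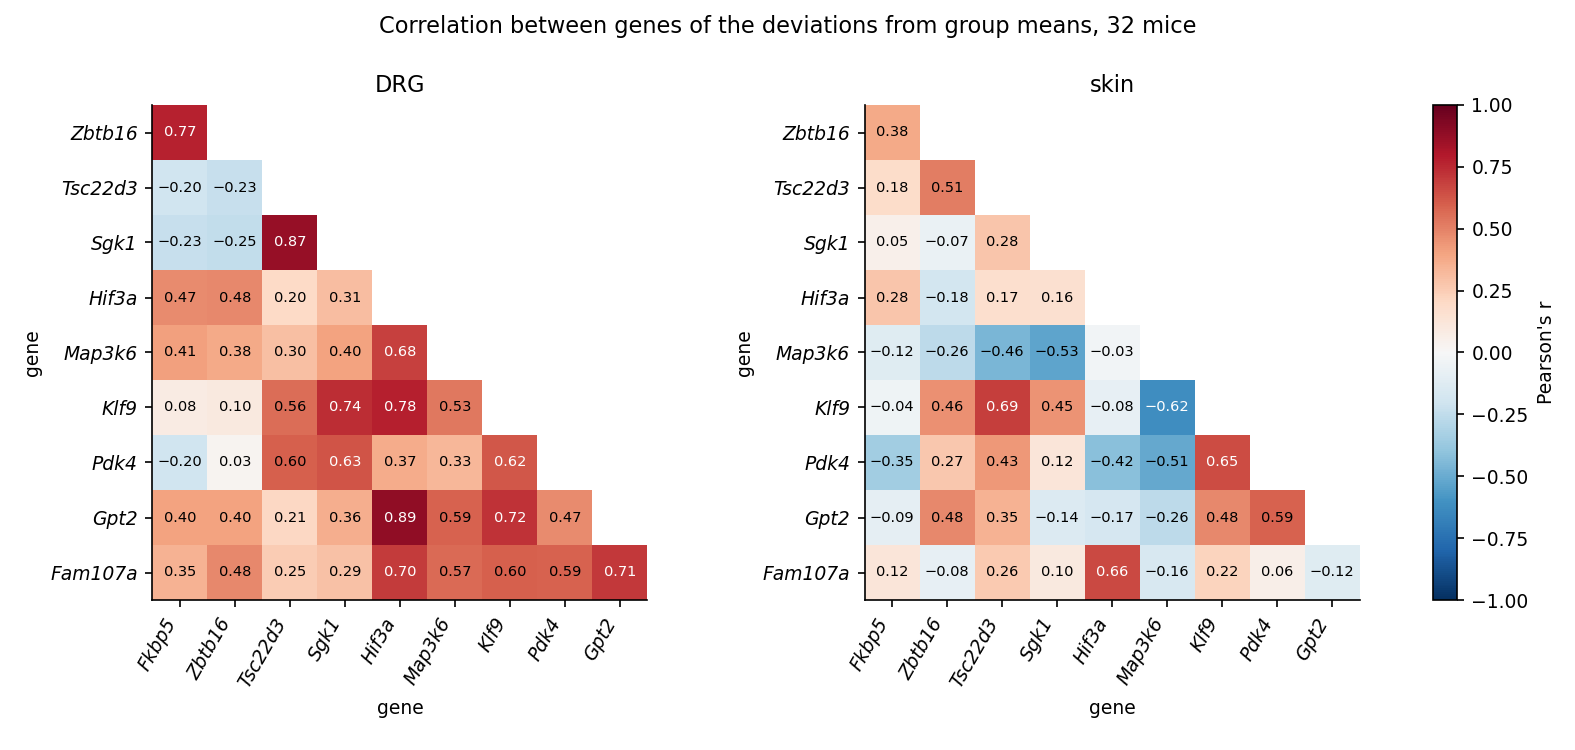
Pearson's r between the deviations of each pair of members from their group means, in DRG (left) and skin (right), over 32 mice, with genes on both axes and the colour scale from −1 to 1. In DRG, Fkbp5 with Zbtb16 (0.77) and Tsc22d3 with Sgk1 (0.87) are high while the values between these pairs are below 0.

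Among 12837 DRG genes with a mean of at least 1 on the log2 CPM scale, the gene whose deviations were most like those of Fkbp5 was Zbtb16 (r = 0.77), a fellow member. The next were Mical2, an actin-oxidising enzyme gene (0.67), Avl9 (0.65), Fam210a (0.62) and Fgd4, an exchange factor gene (0.62). Of the other members, Hif3a ranked 76, Map3k6 179, Gpt2 194 and Fam107a 414, whereas Klf9 ranked 4215 (0.08). Pdk4 ranked 11032 (−0.20), Tsc22d3 11112 (−0.20) and Sgk1 11398 (−0.23). In skin the genes most like Fkbp5 among 12382 were Utp6 (0.70), Ndufaf7 (0.69), Sco1 (0.68), Armh3 (0.67) and Pecr (0.66), and Zbtb16 ranked 611 (0.38). The 2 tissues shared none of these 5 genes.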

How the data were processed

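RNA-seq of DRG and plantar skin from 32 mice was analysed, with 4 mice per treatment and day. According to the labels and methods, the authors trimmed single-end reads with Trimmomatic 0.38, aligned them to the mouse genome with STAR and deposited raw counts per gene in 1 table per tissue, plus a table of counts normalised by DESeq2 size factors. The deposited normalised values (a signal, not counts) served only for alternatives. The methods name ribosomal RNA depletion and the labels oligo-dT, so the library type is unsure. Each raw table has 28 columns that belong to no sample here, which were not used, and 118 rows without a gene name, which held 0.0132% (DRG) and 0.0286% (skin) of counts and were left out.

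Counts were tested with edgeR 4.0.16 in R 4.3.3: filterByExpr, TMM scaling, 1 quasi-likelihood fit per tissue over 8 groups, Benjamini-Hochberg over all genes tested, threshold 0.05. Group contrasts were paclitaxel minus vehicle per day and averaged over the 4 days, and an F test of the days within each treatment. DRG and skin of vehicle mice were fitted together. Agreement between tissues used 100000 two-sided permutations of skin deviations within groups (numpy 2.4.6, scipy 1.17.1), on log2(CPM + 1). The scripts were tested on simulated data.

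The members and gene lists were chosen with earlier results of these data known. The genes named are all members, Nr3c1, Nr3c2 and Hsd11b1, list genes called in the contrast averaged over the days (or, where none was called, some highly expressed ones), and the 5 genes most like Fkbp5 per tissue, and any others were chosen after their values were seen. Nothing states that the mice of a group came from separate cages or litters, so p-values measure the spread between these mice. None of 48 pairs of libraries within groups per tissue was identical. Same-numbered DRG and skin libraries were read from their titles as 1 animal, which the sources used here do not state outright. Their deviations from group means correlated over genes at −0.178 to 0.155 in vehicle mice. The comparison of tissues is given without the pairing, and the replicate block changed no member's call. Exons of the members overlap no other gene's by the annotation used (GRCm38, 0.0%). Alternatives were DESeq2 1.42.0, DESeq2 size factors, no filter, another pseudocount (0.1), a replicate block, each mouse left out, and, chosen after seeing the data, the libraries of mice 09 and 34 or those over 10 CPM of Krt10 left out, and marker covariates.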

Additional observations from a re-analysis of the deposited data

Results flagged for a closer look

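Of 160 values of a member in a group of 4 mice, 9 had a mouse far from the other 3 by Dixon's criterion, which chance gives in about 1 of 20 groups. In DRG these were Hif3a in vehicle mouse 17 of day 7 (15.3 CPM against 10.8, 10.8 and 11.0), Gpt2 in paclitaxel mouse 28 of day 7 (80.8 CPM against 88.3 to 89.0), Gpt2 in vehicle mouse 34 of day 11 (77.6 CPM against 115 to 118) and Pdk4 in paclitaxel mouse 42 of day 11 (54.8 CPM against 23.4 to 24.3). The library of mouse 42 also held the highest summed muscle markers in DRG, 9090 CPM. In skin, Klf9 and Pdk4 stood out in vehicle mouse 08 of day 4 (90.2 and 120 CPM) and in vehicle mouse 52 of day 23 (96.4 and 98.4 CPM), whose muscle markers summed to 25500 and 54900 CPM. Hif3a in skin was 0.775 CPM in paclitaxel mouse 25 of day 7 against 0.371 to 0.420 CPM. The part of muscle in these values was not tested for single mice.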

How the results depend on the processing

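Counts of genes called in the averaged contrast in DRG were 26 as reported, 54 with DESeq2, 68 without mice 09 and 34, 76 with glial markers as a covariate, and 2 without the 11 libraries over 10 CPM of Krt10, which left 1 member called. In skin the same contrast gave 553 genes without a filter on low counts against 1000, and 4 members with DESeq2. Days within vehicle mice gave 62 skin genes without a filter and 291 with muscle markers as a covariate against 163, and 1 DRG gene without mice 09 and 34. Days within paclitaxel mice gave 66 DRG genes without a filter and 1 with the glial covariate against 0, and in skin 0 members and 0 genes with the muscle covariate. With each mouse left out in turn, the averaged contrast called 4 to 6 members and 10 to 63 genes in DRG (the most without mouse 09) and 2 to 4 members and 745 to 1629 genes in skin (the most without mouse 52), days within vehicle mice 0 to 1 members and 0 to 60 genes in DRG (the most without mouse 09) and 0 to 1 members and 46 to 429 genes in skin (the fewest without mouse 05, the most without mouse 06), days within paclitaxel mice 0 to 33 genes in DRG (the most without mouse 44) and 4 to 7 members and 2018 to 3908 genes in skin, and the tissue comparison 7 to 8 members. The member that came and went in DRG was Fam107a, lost in 18 of these fits (adjusted p up to 0.0758, edgeR), or Hif3a, gained without mouse 12 (0.0282) or mouse 34 (0.0106). With a replicate block, the tissue comparison called 8 members and 17239 genes against 8 and 17496, and Pdk4 was 0.92 in place of 0.02 (adjusted p = 0.0546). No single gene's direction reversed at a call, and in skin Pdk4 moved from 0.27 to 0.76 without mouse 08 and 0.80 without mouse 52. Causes were not tested. Whole-tissue skin libraries varied in their summed muscle, glial and keratinocyte markers, and the part of each in the values of Pdk4, Klf9 and Hif3a was not tested. Hif3a was at or below 2.17 CPM in skin, which limits what its values there can show.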
